A study of Mus musculus with 12 samples.

Results

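The 9 genes that encode the AMPA receptor subunits (Gria1 to Gria4) and the kainate receptor subunits (Grik1 to Grik5) were followed through 12 brain RNA-seq libraries. They were taken by gene name from a table of 21643 genes, and each name matched 1 row. All 12 mice were 5xFAD, a mouse line that carries mutant human transgenes under the neuronal Thy1 promoter and deposits amyloid, so the Control mice carry the transgenes too and no mouse without them was analysed here. The groups, of 3 mice each, were labelled Control, PBS, ShK-223 (a peptide) and PAP-1 (a small molecule), the last 2 being inhibitors of the potassium channel Kv1.3. The labels give the strain as not specified. The sources used here do not state age, dose, route or duration, nor how the Control mice were handled differently from the PBS mice. The series title names Kv1.3 inhibition in a model of amyloid pathology as the subject. The tissue is labelled whole brain, and RNA integrity numbers lay between 7.8 and 8.9.

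AMPA receptors carry most of the fast excitatory current of the brain. They are tetramers of GluA1 to GluA4, encoded by Gria1 to Gria4, and RNA editing of the Gria2 transcript makes channels that hold GluA2 nearly impermeable to calcium. Kainate receptors are tetramers too: GluK1, GluK2 and GluK3 (Grik1 to Grik3) can form channels by themselves, whereas GluK4 and GluK5 (Grik4 and Grik5) raise agonist affinity and need one of the others. The subunits differ by region. Gria4 is known from cerebellar granule cells, Bergmann glia and fast-spiking interneurons, Grik2 from cerebellar granule cells and hippocampus, and Grik4 from hippocampal area CA3.

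Libraries held 14364013 to 19048551 counts, and the members had between 214 counts (Grik1) and 14252 counts (Gria2) in a library. All 9 passed the filter on low counts that left 15061 genes to be tested. Cerebellar markers did not have 1 level across these whole-brain libraries. The summed level of 12 cerebellar marker genes was 9058 to 9898 CPM (a gene's counts over the library's scaled total) in PBS and 8839 CPM in Control 2, against 1034 and 1117 CPM in Control 1 and Control 3, 645 to 1205 CPM in ShK-223 and 742 to 2039 CPM in PAP-1, the highest being PAP-1 1. A cerebellar index, the mean over these markers of each gene's CPM relative to its highest library, lay between 0.869 and 0.988 for the PBS libraries and at 0.829 for Control 2. PAP-1 1 had 0.179, and the other 7 libraries had 0.0341 to 0.0445. Gabra6, a defining receptor gene of cerebellar granule cells, was at 384 to 452 CPM in PBS and at 0.056 to 0.429 CPM in ShK-223. Control 2 thus stood apart from Control 1 and Control 3, and results are given with and without it. In bulk tissue, less of a region in a sample, fewer cells of a type and less RNA per cell cannot be told apart. Which of these applied here was not tested.

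On GRCm38 (GENCODE M21) the AMPA subunit genes lie at chr11:57011387-57330244 (Gria1), chr3:80681450-80802835 (Gria2), chrX:41400854-41678601 (Gria3) and chr9:4417896-4796234 (Gria4). The kainate subunit genes lie at chr16:87895900-88290265 (Grik1), chr10:49094833-49788766 (Grik2), chr4:125490700-125714173 (Grik3), chr9:42518135-42944493 (Grik4) and chr7:25009849-25072346 (Grik5). Upstream sequence is shown for Gria4, Grik2, Grik4 and Grik5, the subunits that passed the test in both inhibitor comparisons with PBS below. Each run is the 250 bases before the annotated start in RefSeq (GRCm38.p6), 5′ to 3′ on the gene's strand, with matches to the GC box GGGCGG on either strand in capitals. The windows are chr9:4796235-4796484, minus strand, for Gria4, and chr10:49788755-49789004, minus strand, for Grik2. For Grik4 and Grik5 they are chr9:42944372-42944621 and chr7:25072370-25072619, both on the minus strand. The RefSeq and GENCODE starts are not the same, so the Grik2 and Grik4 windows reach into the GENCODE genes given above.
Gria4: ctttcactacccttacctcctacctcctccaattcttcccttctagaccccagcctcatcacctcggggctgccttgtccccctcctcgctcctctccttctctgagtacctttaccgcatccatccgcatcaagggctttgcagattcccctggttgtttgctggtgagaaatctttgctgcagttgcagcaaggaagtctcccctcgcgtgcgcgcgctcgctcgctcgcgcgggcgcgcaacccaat
Grik2: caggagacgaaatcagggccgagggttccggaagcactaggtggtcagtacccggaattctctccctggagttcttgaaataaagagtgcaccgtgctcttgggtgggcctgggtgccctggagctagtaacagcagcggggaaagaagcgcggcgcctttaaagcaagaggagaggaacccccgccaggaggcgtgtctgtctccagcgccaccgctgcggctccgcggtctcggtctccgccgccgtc
Grik4: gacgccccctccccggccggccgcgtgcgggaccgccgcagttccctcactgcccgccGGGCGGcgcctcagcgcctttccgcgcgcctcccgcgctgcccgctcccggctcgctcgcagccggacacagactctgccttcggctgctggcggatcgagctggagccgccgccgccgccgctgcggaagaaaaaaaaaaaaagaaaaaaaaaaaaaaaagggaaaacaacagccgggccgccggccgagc
Grik5: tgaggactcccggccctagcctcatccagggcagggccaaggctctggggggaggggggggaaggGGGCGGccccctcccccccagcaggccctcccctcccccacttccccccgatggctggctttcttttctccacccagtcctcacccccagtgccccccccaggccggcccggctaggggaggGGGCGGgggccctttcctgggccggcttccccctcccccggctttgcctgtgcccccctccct

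The upstream windows of both subunits that were higher with the inhibitors held GC boxes, 1 in Grik4 and 2 in Grik5, and those of Gria4 and Grik2 held 0. Of all 32851 windows of the same length, 32.7% held the motif. The GC content was 75.2% in Grik5, 69.6% in Grik4, 62.8% in Grik2 and 58.8% in Gria4, against a median of 52.4% over all windows. Grik3, which did not pass in any comparison with all 12 libraries, held 6 GC boxes and Gria2 held 0. None of these 6 windows, Gria2 and Grik3 included, held the TATA box TATAAA, the cAMP response element TGACGTCA, the NRF1 site or the EGR1 site GCGTGGGCG, which 12.4%, 1.55%, 0.78% and 0.54% of all windows held. The E-box CANNTG was present once each in Gria2, Gria4 and Grik3, and in 66.2% of all windows. All motifs were searched on both strands. A match is a run of letters and not a measured binding site. Gria1, Gria3 and Grik1 had no entry in the table of windows.

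Levels between genes were compared as CPM per kb of exon, with the union of GENCODE exons on GRCm38 as the length. Over the 12 libraries Gria1 led with a mean of 88.9 CPM per kb, followed by Grik5 (46.1), Gria2 (42.1), Gria4 (36.2), Gria3 (23.1), Grik3 (14.1), Grik2 (6.61), Grik4 (5.28) and Grik1 (3.06). In PBS the order was Gria1 at 89.1 ± 5.33 CPM per kb (SD, n = 3), Gria4 at 69.5 ± 5.18, Gria2 at 33.8 ± 3.75, Grik5 at 24.3 ± 5.70, Gria3 at 17.1 ± 2.64 and Grik3 at 13.3 ± 1.56. In ShK-223 it was Gria1 at 80.3 ± 2.97 CPM per kb, Grik5 at 53.4 ± 3.68, Gria2 at 45.4 ± 5.69, Gria3 at 26.4 ± 3.89 and Gria4 at 20.3 ± 1.57. The rank of Gria4 was thus just below Gria1 in PBS and below Gria3 in ShK-223. The lower end held Grik2 at 8.81 ± 0.4003, Grik1 at 4.05 ± 0.474 and Grik4 at 3.96 ± 0.192 CPM per kb in PBS. In ShK-223 it held Grik3 at 14.5 ± 1.43, Grik4 at 5.58 ± 0.437, Grik2 at 5.13 ± 0.442 and Grik1 at 2.42 ± 0.356 CPM per kb. Neighbours in these orders that differed by less than the sum of their SDs were Grik5 and Gria3, Gria3 and Grik3, and Grik1 and Grik4 in PBS, and Grik5 and Gria2, and Grik4 and Grik2 in ShK-223.

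Among the AMPA subunits, Gria4 had the widest range over the libraries. It was at 424, 475 and 415 CPM in PBS 1, 2 and 3, at 122, 123 and 140 CPM in ShK-223 and at 143, 138 and 129 CPM in PAP-1. Control 1, 2 and 3 had 109, 412 and 109 CPM. The PBS libraries and Control 2 lay above 410 CPM and the other 8 libraries below 144 CPM, with none between. Gria4 fell to 0.293 times the PBS level with ShK-223 (log2 fold change -1.77, SE 0.43, edgeR quasi-likelihood test, adjusted p = 0.0118, n = 3 against 3) and to 0.312 times with PAP-1 (-1.68, SE 0.43, adjusted p = 0.0123). Both calls held in 6 of 6 fits that left out 1 library of the compared groups. With the cerebellar index as a term in the fit, the log2 value was 0.34 for ShK-223 (adjusted p = 0.994) and 0.32 for PAP-1 (adjusted p = 0.554). The index nearly coincides with group here, at 0.869 to 0.988 in PBS, 0.0341 to 0.044 in ShK-223 and 0.0429 to 0.179 in PAP-1. Fits of the inhibitors against PBS with this term, here and below, therefore cannot separate group from index. With it 0 of 15061 genes passed in either comparison. Batch as a term gave -1.40 (adjusted p = 0.0832) and -1.42 (adjusted p = 0.0710).

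Gria3 was low in PBS, at 199, 150 and 158 CPM, and at 218, 270 and 292 CPM in ShK-223, without overlap. PAP-1 had 161, 291 and 293 CPM, so that PAP-1 1 lay within the PBS range and the other 2 above it. The Control libraries were at 240.1, 205 and 255 CPM, all above PBS. Gria3 rose 1.54-fold with ShK-223 (log2 0.62, SE 0.22, adjusted p = 0.0449). The call ended with batch as a term (0.71, adjusted p = 0.129), with the cerebellar index (0.15, adjusted p = 0.997) and without the filter on low counts (0.62, adjusted p = 0.0534). It held without PBS 1 or ShK-223 1, but not without PBS 2 (adjusted p = 0.140), PBS 3 (0.122), ShK-223 2 (0.102) or ShK-223 3 (0.129). With PAP-1 the value was 0.56 (SE 0.22, adjusted p = 0.0612), and without PAP-1 1 it was 0.79 (SE 0.16, adjusted p = 0.00818).

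Gria2, which sets the calcium permeability of AMPA receptors, moved close to Gria3 across the 12 libraries (Pearson r = 0.96 on log2 CPM, a description of libraries that fall into sets of high and low cerebellar index). It was at 585, 522 and 468 CPM in PBS, at 604, 750 and 764 CPM in ShK-223 and at 540.3, 770 and 777 CPM in PAP-1. Control 1, 2 and 3 had 737, 606 and 733 CPM. PBS did not overlap with ShK-223 or Control, and PAP-1 1 lay inside the PBS range. Gria2 missed the threshold against PBS with ShK-223 (0.43, SE 0.16, adjusted p = 0.0552) and with PAP-1 (0.41, SE 0.16, adjusted p = 0.0607). Without PAP-1 1 the PAP-1 value was 0.56 (adjusted p = 0.0165), and without ShK-223 1 the ShK-223 value was 0.55 (adjusted p = 0.0439). DESeq2 called Gria2 in both comparisons (adjusted p = 0.0272 and 0.0312).

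Gria1, the other main subunit of forebrain AMPA receptors, had the narrowest range of the 9 genes, with a highest library 1.44 times the lowest. PBS was at 565, 547 and 503 CPM, ShK-223 at 505, 471 and 479 CPM, PAP-1 at 525, 575 and 679 CPM and Control at 514, 565 and 516 CPM. PBS overlapped with each of the other groups. The log2 difference from PBS was -0.15 (SE 0.10, adjusted p = 0.257) for ShK-223 and 0.14 (SE 0.10, adjusted p = 0.286) for PAP-1.

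**Figure D1:**
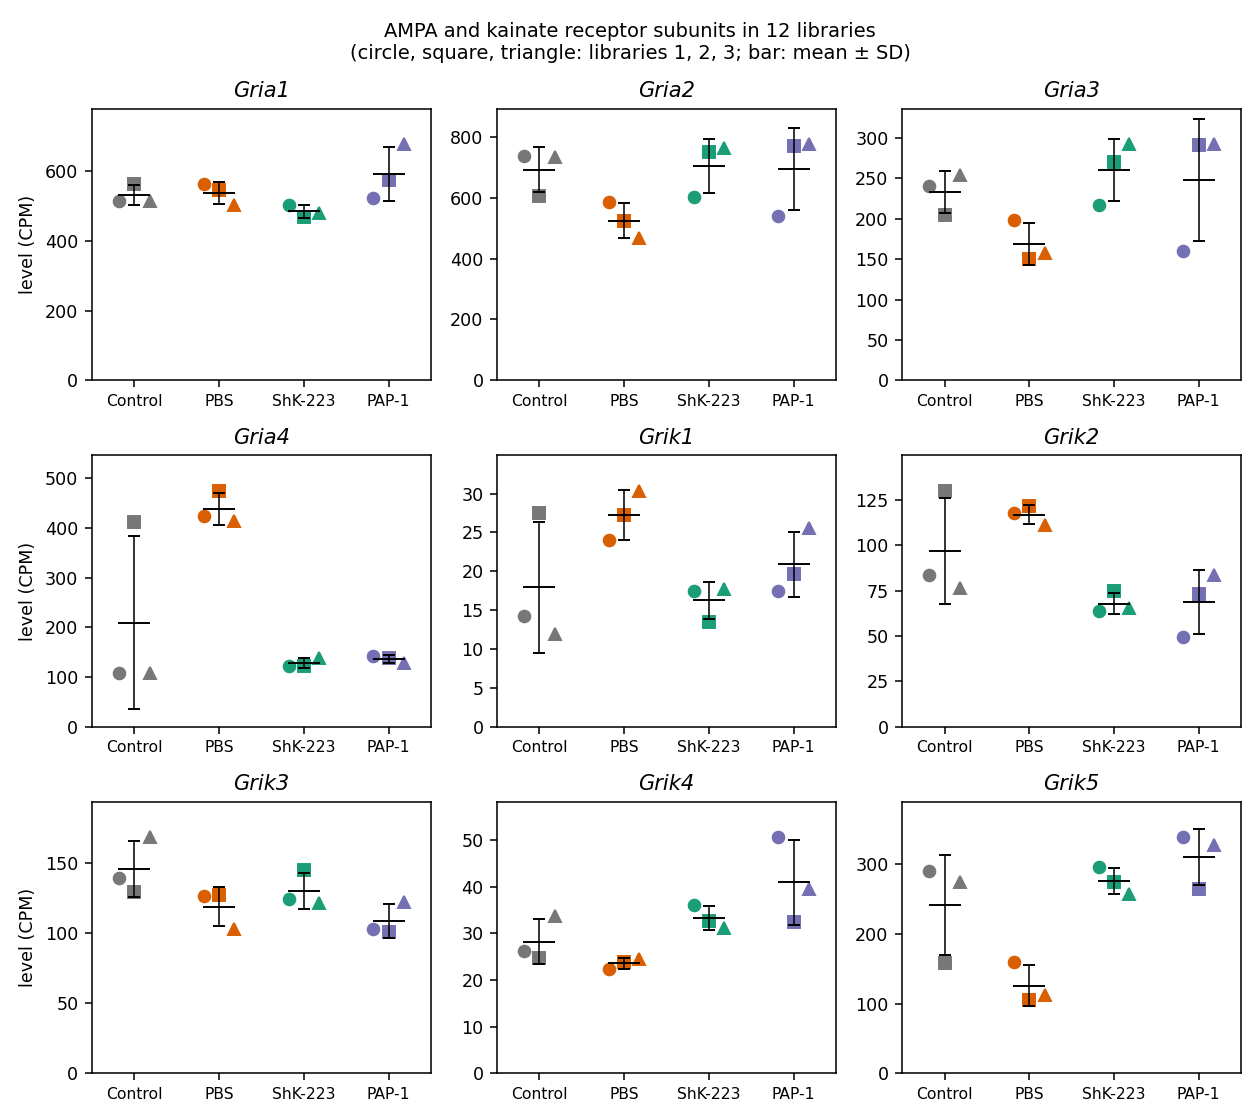
Level of each subunit in CPM (y axis, from 0) in the 3 libraries of each group, with the group mean and SD as a bar. Gria4 and Grik2 are high and Grik5 low in the 3 PBS libraries and in Control 2 (grey square), and Gria1 shows little difference between groups.

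In the kainate family Grik5 rose and Grik2 fell with both inhibitors relative to PBS. Grik5, an affinity-raising subunit and the most abundant kainate transcript per length, was at 159, 105 and 113 CPM in PBS, at 296, 275 and 258 CPM in ShK-223 and at 339, 265 and 327 CPM in PAP-1. Control 1 and Control 3 were at 291 and 275 CPM and Control 2 at 159 CPM, level with PBS 1. The inhibitor libraries all lay above 257 CPM and the PBS libraries all below 160 CPM. Grik5 rose 2.20-fold with ShK-223 (log2 1.14, SE 0.23, adjusted p = 0.00734) and 2.47-fold with PAP-1 (1.304, SE 0.23, adjusted p = 0.00341), and both calls held in 6 of 6 fits without 1 library. With the cerebellar index as a term the values were 0.21 (adjusted p = 0.995) and 0.44 (adjusted p = 0.639). Batch as a term ended the ShK-223 call (0.95, adjusted p = 0.0770).

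Grik4, the other affinity-raising subunit, was at 22.4, 23.9 and 24.6 CPM in PBS, at 36.2, 32.6 and 31.1 CPM in ShK-223 and at 50.6, 32.5 and 39.6 CPM in PAP-1. Control was at 26.3, 24.6 and 33.7 CPM. All 6 inhibitor libraries lay above all PBS libraries. Grik4 rose 1.41-fold with ShK-223 (log2 0.49, SE 0.16, adjusted p = 0.0354) and 1.73-fold with PAP-1 (0.79, SE 0.16, adjusted p = 0.00581). The ShK-223 call was lost in each of the 6 fits without 1 library (adjusted p from 0.0582 without ShK-223 3 to 0.0939 without PBS 1, the others being PBS 2 at 0.0859, PBS 3 at 0.0735, ShK-223 1 at 0.0908 and ShK-223 2 at 0.0700). It was also lost with batch as a term (0.32, adjusted p = 0.250), and the PAP-1 call held in 6 of 6. With the cerebellar index as a term neither passed (0.30, adjusted p = 0.994, for ShK-223 and 0.61, adjusted p = 0.544, for PAP-1).

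Grik2, a pore-forming subunit, was at 118, 122 and 111 CPM in PBS and 130.0 CPM in Control 2, and below 84 CPM in all other libraries. ShK-223 had 63.6, 74.6 and 65.5 CPM, PAP-1 had 49.5, 73.4 and 83.6 CPM, and Control 1 and Control 3 had 83.4 and 76.6 CPM. Grik2 fell to 0.582 times PBS with ShK-223 (log2 -0.78, SE 0.22, adjusted p = 0.0184) and to 0.590 times with PAP-1 (-0.76, SE 0.22, adjusted p = 0.0181). The ShK-223 call was lost without PBS 2 (adjusted p = 0.0567), ShK-223 1 (0.0587) or ShK-223 3 (0.0565), and the PAP-1 call without PBS 2 (0.0546). The cerebellar index as a term brought the values to -0.12 (adjusted p = 0.997) and -0.13 (adjusted p = 0.941), and batch as a term to -0.63 (adjusted p = 0.120) and -0.73 (adjusted p = 0.0725).

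Grik1, the least abundant member per length, was at 24.0, 27.3 and 30.4 CPM in PBS and 27.6 CPM in Control 2. ShK-223 had 17.5, 13.5 and 17.8 CPM, PAP-1 had 17.4, 19.7 and 25.5 CPM, and Control 1 and Control 3 had 14.3 and 11.99 CPM. PBS did not overlap with ShK-223 and overlapped with PAP-1. It missed the threshold against PBS with ShK-223 (-0.74, SE 0.28, adjusted p = 0.0562) and PAP-1 (-0.38, SE 0.28, adjusted p = 0.284). The ShK-223 value passed in DESeq2 (-0.72, adjusted p = 0.0345), with the compared groups alone (-0.74, adjusted p = 0.00623) and without Control 2 and PAP-1 1 (-0.74, adjusted p = 0.00304). A term for the cerebellar index gave 0.37 (adjusted p = 0.994) and 0.68 (adjusted p = 0.550). Grik3, a pore-forming subunit of low agonist sensitivity, was at 127, 128 and 103 CPM in PBS, 125, 145 and 121 CPM in ShK-223, 103, 101 and 123 CPM in PAP-1 and 140, 130 and 169 CPM in Control. PBS overlapped with both inhibitor groups in Grik3 (0.13, SE 0.13, adjusted p = 0.449 for ShK-223, and -0.13, SE 0.13, adjusted p = 0.446 for PAP-1). The Grik3 value for ShK-223 turned to -0.16 with the cerebellar index as a term (adjusted p = 0.995).

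Against PBS, 3 of the 9 subunits were thus higher and 2 lower with ShK-223, where 39.1% of all 15061 genes passed, 18.8% being higher and 20.3% lower. With PAP-1 2 of 9 were higher and 2 lower, where 43.7% of all genes passed, 21.1% being higher and 22.6% lower. These shares of the members lie near the share of all genes. The median log2 change was 0.13 over the 9 subunits and -0.01 over all genes with ShK-223, and 0.14 and -0.01 with PAP-1. Without overlap between the groups were 7 of 9 subunits with ShK-223, against 59.1% of all genes, and 4 of 9 with PAP-1, against 59.4%. Both comparisons share the 3 PBS libraries. Leaving out 1 library gave 2 to 4 subunits with ShK-223 and 3 to 6 with PAP-1, with 6 reached without PAP-1 1. Without both Control 2 and PAP-1 1, 7 of 9 passed with ShK-223 and 6 of 9 with PAP-1, and the genes called rose too, to 7762 and 7595 of 15213.

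**Figure D2:**
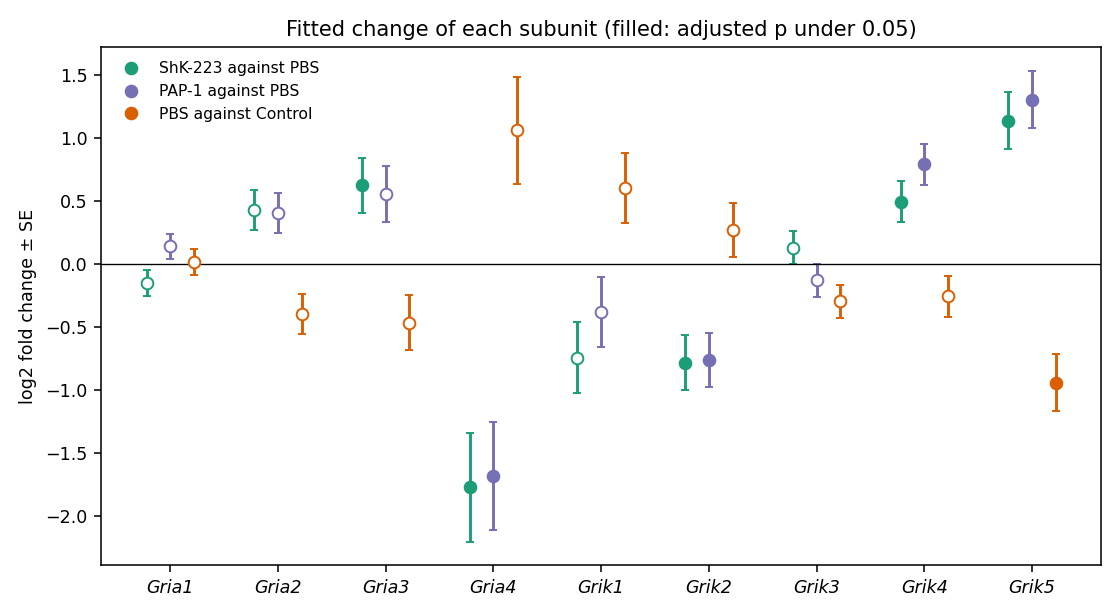
Fitted log2 fold change with its SE (y axis) of the 9 subunits (x axis) for ShK-223 against PBS, PAP-1 against PBS and PBS against Control, with filled points for an adjusted p under 0.05. Gria4 and Grik2 lie below 0 and Grik4 and Grik5 above 0 for both inhibitors, and Grik5 alone is filled for PBS against Control.

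Batches, named B, C and CH in the labels without explanation, could be set against the pooled values in part. Within batch CH, which held 2 ShK-223 libraries and 1 PBS library, the log2 difference was -1.87 for Gria4, 1.397 for Grik5, -0.91 for Grik2, 0.49 for Grik4 and 0.75 for Gria3, and 8 of the 9 subunits had the sign of the pooled fit, Grik3 being at -0.05. Within batch C, which held 1 PAP-1 library and 2 PBS libraries, it was -1.60 for Gria4, 0.98 for Grik5, -0.64 for Grik2 and 0.47 for Grik4, and all 9 had the sign of the pooled fit. Batch B held no PBS library. The libraries of batches C and CH are also in the pooled fit, so shared signs are no separate evidence. Within these batches the PBS libraries had a cerebellar index of 0.869 or more and the inhibitor libraries 0.0341 to 0.044.

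The 2 inhibitors were compared with each other to ask whether a peptide and a small molecule against the same channel left different subunit levels. They are not analogs, and their doses are not given, so the values stand side by side. None of the 9 subunits passed, as none of the 15061 genes did (0.0% called by edgeR, with 684 genes at an unadjusted p under 0.05 and 5 called by DESeq2). Gria1 was 0.29 lower on the log2 scale with ShK-223 than with PAP-1 (SE 0.10, 95% interval -0.53 to -0.06, unadjusted p = 0.0169, adjusted p = 0.984), and its groups did not overlap, as in 10.6% of all genes. The interval of the difference was -0.35 to 0.39 for Gria2, -0.52 to 0.48 for Grik2 and -0.69 to 0.35 for Grik5. For Gria4 it was -1.06 to 0.87. Its width rests on the spread in the fit to all 12 libraries, in which Control 2 was at 412 CPM and the other Control libraries at 109 CPM. The inhibitor libraries themselves lay at 122 to 140 CPM with ShK-223 and at 129 to 143 CPM with PAP-1. Within batch B (1 ShK-223 and 2 PAP-1 libraries) Gria4 was -0.14 and Grik5 -0.28.

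The composition of each family differed between PBS and the inhibitor groups. Per kb of exon, Gria4 made up 30.8%, 35.1% and 33.7% of AMPA subunit transcript in PBS 1, 2 and 3 and 29.9% in Control 2. Its share was 9.6% to 14.2% in the other 8 libraries. Gria2 made up 16.1% ± 0.972 (SD, n = 3) in PBS, 26.3% ± 2.24 in ShK-223 and 23.5% ± 1.81 in PAP-1, and 27.2%, 17.8% and 26.8% in Control 1, 2 and 3. Gria3 was at 8.17% ± 1.07 in PBS, 15.3% ± 1.57 in ShK-223 and 13.1% ± 2.58 in PAP-1. Gria1 was the largest part in every library, at 42.2% to 54.1%. These shares depend on the exon lengths, which are long for Gria2 (15.5 kb, against 6.04 kb for Gria1): without the division by length Gria2 held 31.4% of the AMPA subunit CPM in PBS and 44.6% in ShK-223.

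Among kainate subunits, Grik5 made up 44.3% ± 5.65 in PBS, 65.9% ± 1.63 in ShK-223 and 68.7% ± 2.37 in PAP-1. In Control 1, 2 and 3 its share was 66.5%, 48.6% and 62.4%. Grik2 had 16.3% ± 1.64 in PBS, 6.33% ± 0.591 in ShK-223 and 6.02% ± 1.70 in PAP-1. Grik1 had 7.56% ± 1.59 in PBS and 2.99% ± 0.523 in ShK-223. The 2 affinity-raising subunits thus held a larger part of kainate transcript in both inhibitor groups than in PBS through Grik5, since the share of Grik4 was 7.36% ± 1.09 in PBS, 6.88% ± 0.272 in ShK-223 and 7.82% ± 1.23 in PAP-1. Shares within a family are bound to sum to the whole and were not tested.

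Summed per kb, AMPA transcript was at 209 ± 12.5 CPM per kb in PBS, 172 ± 8.23 in ShK-223, 189.7 ± 26.5 in PAP-1 and 189.5 ± 25.3 in Control. Kainate transcript was at 54.4 ± 5.91 CPM per kb in PBS, 81.1 ± 4.33 in ShK-223, 87.4 ± 9.47 in PAP-1 and 77.7 ± 12.5 in Control. The ratio of AMPA to kainate transcript was 3.57, 4.15 and 3.88 in PBS and 3.45 in Control 2. Control 1 and Control 3 both had 2.06, ShK-223 libraries 1.94 to 2.36 and PAP-1 libraries 1.75 to 2.56. The 4 libraries with a high cerebellar index were therefore the 4 with the highest ratio.

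**Figure D3:**
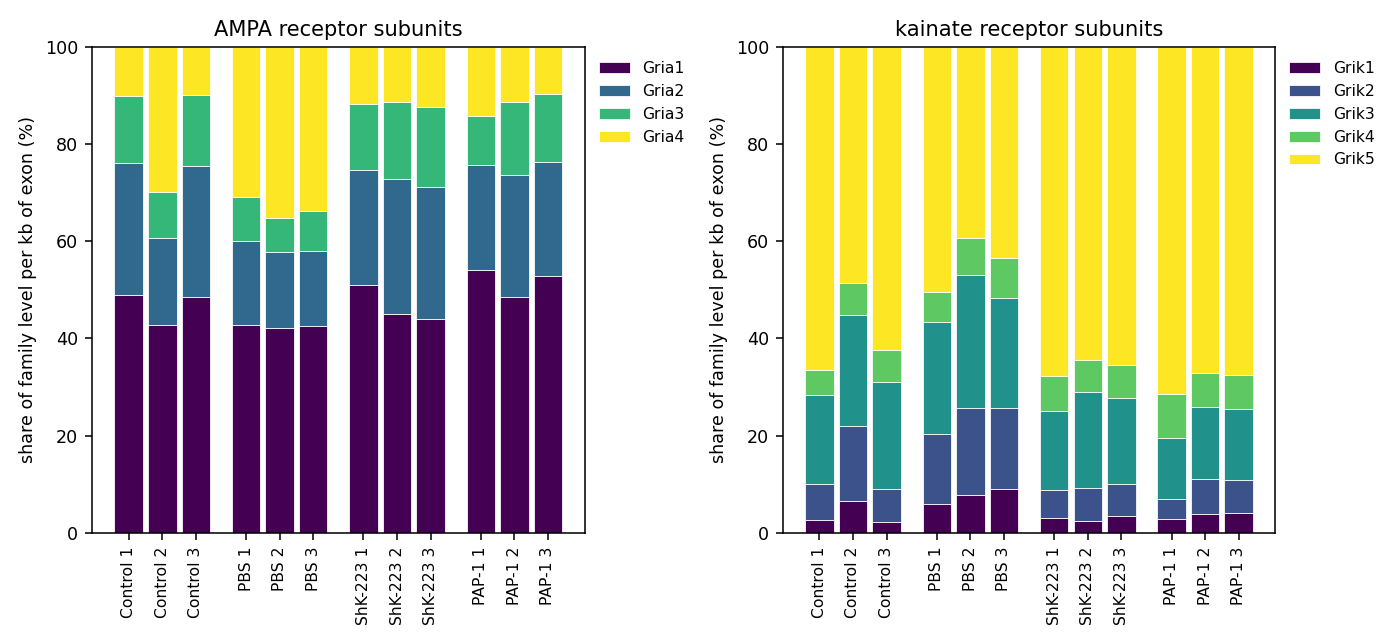
Share of each subunit in the level per kb of exon of its family (y axis, %) in each of the 12 libraries (x axis), for AMPA subunits on the left and kainate subunits on the right. The 3 PBS bars and Control 2 have a wide Gria4 part and a narrower Grik5 part than the other 8.

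PBS was compared with Control to describe the 2 groups without an inhibitor. Of the 9 subunits 1 was lower and none higher in PBS, where 5.02% of all genes passed, 4.61% being lower. The groups did not overlap in 5 of 9 subunits, against 29.3% of all genes. The subunit that passed was Grik5 (log2 -0.94, SE 0.23, adjusted p = 0.0455), whose groups overlapped through Control 2. The call ended with the cerebellar index as a term (-0.25, adjusted p = 1.0), with batch as a term (-0.79, adjusted p = 0.197) and with the compared groups alone (-0.94, adjusted p = 0.186). It held without Control 2 (-1.17, adjusted p = 0.000648) and without PBS 1, and was lost without Control 1 (-0.79, adjusted p = 0.181), Control 3 (-0.84, adjusted p = 0.201), PBS 2 (-0.83, adjusted p = 0.187) or PBS 3 (-0.87, adjusted p = 0.168). With all libraries Gria4 missed the threshold (1.06, SE 0.42, adjusted p = 0.115). Without Control 2, 6 of the 9 subunits passed: Gria4 was higher in PBS by 2.01 (SE 0.10, adjusted p = 9.06e-06), Grik1 by 1.06 (adjusted p = 0.00202) and Grik2 by 0.55 (adjusted p = 0.0325), and Gria2 (-0.48, adjusted p = 0.0401), Grik3 (-0.37, adjusted p = 0.0488) and Grik5 were lower. Over all genes the count went from 756 of 15061 to 6721 of 15299 without Control 2, with 3476 higher and 3245 lower in PBS. Within batch C, where the Control library is Control 2, Gria4 differed by 0.03 and Grik5 by -0.25, and within batch CH, where it is Control 3, by 2.13 and -1.39.

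Control 2 was nearer to the PBS mean than to the mean of Control 1 and Control 3, on a log2 scale, in 8 of the 9 subunits, Gria3 being the exception. It had 3.78 times the mean of Control 1 and Control 3 in Gria4, 2.10 times in Grik1, 1.63 times in Grik2 and 0.562 times in Grik5. The deposited column name of Control 2 gives another lane than those of the other 11 libraries.

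The inhibitor groups were also set against Control. None of the 9 subunits passed with ShK-223 or PAP-1, as 0.0% of all genes did in edgeR (with 1027 and 2290 genes at an unadjusted p under 0.05, and 10 and 381 called by DESeq2). For Gria4 the value was -0.71 (SE 0.42) with ShK-223 and -0.62 (SE 0.42) with PAP-1, both resting on Control 2: without Control 2 and PAP-1 1 they were 0.23 (adjusted p = 0.644) and 0.29 (adjusted p = 0.217). Grik4 was 0.54 higher with PAP-1 than in Control (SE 0.16, unadjusted p = 0.00756, adjusted p = 0.221) and Grik3 was 0.42 lower on the same scale (log2 -0.42, SE 0.13, unadjusted p = 0.00862, adjusted p = 0.223). Grik5 was at 0.19 (SE 0.22) with ShK-223 and 0.36 (SE 0.22) with PAP-1. Without overlap between groups were 2 of 9 subunits with ShK-223, Gria1 and Grik2, against 10.6% of all genes, and 1 of 9 with PAP-1, Grik3, against 17.9%. Within batch B, Gria4 was 0.18 with ShK-223 and 0.32 with PAP-1, and within batch C, where Control 2 lies, it was -1.57 with PAP-1.

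**Figure D4:**
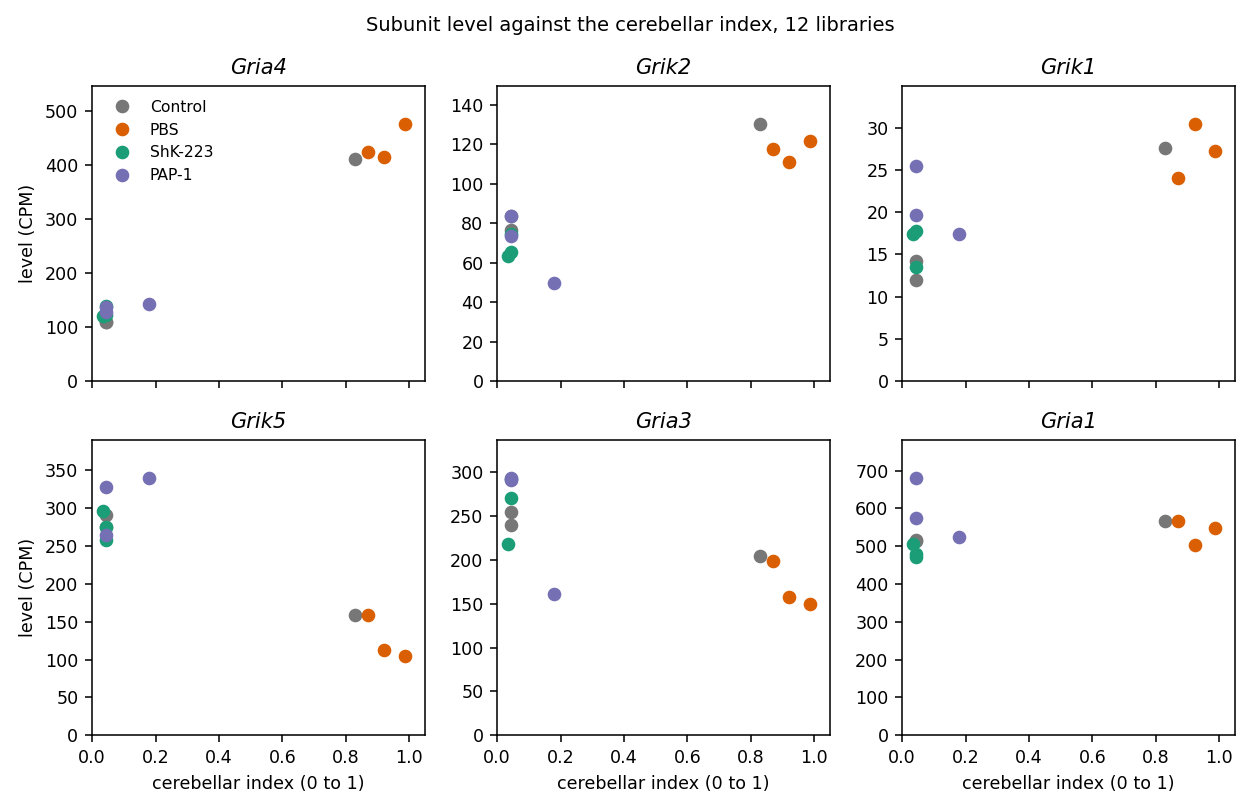
Level in CPM (y axis, from 0) of 6 subunits against the cerebellar index (x axis, 0 to 1) in the 12 libraries, coloured by group. Gria4 and Grik2 are high and Grik5 low in the 4 libraries with an index of 0.829 or more, Control 2 among them, and Gria1 has no such step.

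Markers of other cell types and regions also moved with these results, and their part in the results was not tested. The counts below stand against 18.8% of all genes higher and 20.3% lower with ShK-223, and 21.1% and 22.6% with PAP-1. Without overlap from PBS were 59.1% of all genes with ShK-223 and 59.4% with PAP-1. All 12 cerebellar markers passed the test as lower with ShK-223 than with PBS. With PAP-1 5 of the 12 passed as lower, and the other 7 had lower values too without passing, such as Gabra6 (log2 -4.41, adjusted p = 0.121), with no overlap between the groups in any of the 12. No library had more than 1 of the 12 at 0 counts, but a count above 0 can still lie near the floor. In ShK-223, Gabra6 was at 0.056 to 0.429 CPM and Cbln3 at 0.448 to 1.55 CPM. Others of the 12 stayed well above it, such as Calb1 at 103 to 132 CPM. Of 8 hippocampal and cortical markers, 6 were higher with ShK-223 and 7 with PAP-1, with summed levels of 853 to 2727 CPM in PBS, 5387 to 6680 CPM in ShK-223, 5591 to 6819 CPM in PAP-1 and 2489 to 5947 CPM in Control. Neurod6, which marks excitatory neurons of cortex and hippocampus, was at 10.9 ± 4.39 CPM in PBS and 77.1 ± 14.5 CPM in ShK-223. Neurod2 of the same list went the other way without passing, at 149.8 ± 10.9 CPM in PBS, 100.3 ± 6.51 CPM in ShK-223 and 109.8 ± 16.6 CPM in PAP-1 (log2 -0.58, adjusted p = 0.0527, and -0.45, adjusted p = 0.110). Of 6 markers of inhibitory neurons, which also carry Gria4, 3 were lower and 2 higher with each inhibitor. Their sums were 1161 to 1289 CPM in PBS, 770 to 812 CPM in ShK-223, 697 to 764 CPM in PAP-1 and 900 to 1249 CPM in Control. Abundant genes weigh most in these sums: Pvalb had a mean of 430.4 CPM in PBS, 54.5 CPM in ShK-223 and 45.7 CPM in PAP-1. Sst went the other way, with means of 20.95, 105.9 and 131.6 CPM, and so did Vip, with 3.62, 33.05 and 35.4 CPM. An index of this list, built like the cerebellar one, was 0.569 to 0.603 in PBS, 0.545 to 0.564 in ShK-223 and 0.526 to 0.604 in PAP-1. Of 5 markers of oligodendrocyte precursors, which also express AMPA receptors, 2 were higher with each inhibitor, with sums of 138 to 162 CPM in PBS, 221 to 239 CPM in ShK-223 and 198 to 229 CPM in PAP-1. Of 5 microglial markers, all were higher with ShK-223 and 3 with PAP-1, with sums of 138 to 279 CPM in PBS, 425 to 515 CPM in ShK-223, 373 to 478 CPM in PAP-1 and 213 to 781 CPM in Control. Of 5 astrocyte markers 2 were lower with each inhibitor, and of 5 oligodendrocyte markers 0 passed with ShK-223 and 4 were lower with PAP-1. The 6 striatal markers summed to 1168, 123 and 942 CPM in Control 1, 2 and 3 and to 123, 847 and 437 CPM in ShK-223 1, 2 and 3, against 110.3 to 218 CPM in PBS and 109 to 156 CPM in PAP-1, and none passed with either inhibitor. The 4 markers of thalamus and midbrain summed to 49.1 to 169 CPM in Control, 102 to 212 CPM in PBS, 60.9 to 190.1 CPM in ShK-223 and 49.4 to 85.6 CPM in PAP-1, and 1 was lower with PAP-1. The 5 pan-neuronal markers summed to 3914 to 4225 CPM in PBS and 4483 to 5824 CPM in ShK-223. In PAP-1 the sums were 4210 to 5494 CPM, and in Control 4269 to 5282 CPM. Of the 5, 1 was higher and 0 lower with ShK-223, and 2 were higher and 1 lower with PAP-1. They did not move together: the mean of Syt1 was 602.5 CPM in PBS and 1668 CPM in ShK-223, and that of Rbfox3 461.7 and 362.3 CPM.

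Genes of receptor partners were examined next, by transcript only, since no protein was measured. They encode auxiliary subunits and proteins of biogenesis, anchoring, trafficking and RNA editing. Auxiliary subunits of AMPA receptors set their trafficking and gating. Of 14 genes for them, 7 were higher and 5 lower with ShK-223 than with PBS, with 7 higher and 4 lower with PAP-1. Of all genes 18.8% were higher and 20.3% lower with ShK-223, and 21.1% and 22.6% with PAP-1. The list's median log2 change was 0.30 and 0.38, against -0.01 for all genes in both. Cacng8, a TARP of the hippocampus, was at 19.97, 13.4 and 15.7 CPM in PBS, at 57.1, 54.2 and 53.4 CPM in ShK-223 and at 56.3, 60.1 and 66.5 CPM in PAP-1, and rose by 1.75 (SE 0.26, adjusted p = 0.0042) and 1.90 (SE 0.26, adjusted p = 0.00203). In Control 1, 2 and 3 it was at 48.8, 22.5 and 49.5 CPM, so Control 2 again lay by the PBS libraries. The cornichon genes Cnih2 and Cnih3, whose products slow AMPA receptor closing, rose by 1.63 and 2.42 with ShK-223 and by 1.87 and 2.81 with PAP-1, and the TARP gene Cacng3 by 2.52 with both. Other genes of the list had lower means with the inhibitors. Shisa6 had a mean of 190.0 CPM in PBS, 35.0 CPM in ShK-223 and 51.2 CPM in PAP-1, and the TARP gene Cacng2 had 242.0, 157.9 and 133.0 CPM. Without Control 2 and PAP-1 1 the list counts were 7 higher and 6 lower, and 7 and 5. With batch as a term no gene of the 5 partner lists passed with ShK-223, and 7 auxiliary subunits were higher and 1 lower with PAP-1. For ShK-223 some log2 values with batch as a term stayed near those without it. They were 2.25 for Lrrtm1, 1.43 for Nptxr, 2.49 for Neto1 and 1.58 for Cacng8 (adjusted p 0.0562 to 0.0956). Others shrank by a larger part, to -0.865 for Porcn (adjusted p = 0.0809), -0.48 for Neto2 (0.0835) and -0.47 for Adarb1 (0.206). None passed with the cerebellar index as a term, and the log2 values then moved unequally. For ShK-223 and PAP-1 they were 4.54 and 5.09 for C1ql2, 1.19 and 1.72 for Nptxr, 1.43 and 2.03 for C1ql3 and 0.35 and 0.49 for Nsf. They were 0.10 and 0.42 for Cnih2, and -0.10 and -0.05 for Neto1.

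Anchoring and trafficking proteins hold AMPA receptors at synapses. Of 15 genes for them, 10 were higher and 0 lower with ShK-223, with 8 higher and 0 lower with PAP-1. The shares of all genes were 18.8% higher and 20.3% lower with ShK-223, and 21.1% and 22.6% with PAP-1. The median log2 change of the list was 0.70 and 0.62, against -0.01 for all genes in both. Lrrtm1, a synaptic adhesion protein, was at 12.6 ± 2.87 CPM in PBS, 62.2 ± 18.5 CPM in ShK-223 and 74.8 ± 11.4 CPM in PAP-1, and rose by 2.31 (SE 0.27, adjusted p = 0.00367) and 2.57 (SE 0.27, adjusted p = 0.00178). Nptxr, the neuronal pentraxin receptor, rose by 1.45 and 1.97, and Nsf, an ATPase that binds GluA2, by 0.49 and 0.62. Grip2, which binds the tail of GluA2 and GluA3, rose by 0.52 with ShK-223. Its mean was 27.3 CPM in PBS, 39.1 CPM in ShK-223 and 30.4 CPM in PAP-1, so PAP-1 lay nearer to PBS. Olfm1 rose by 0.91 with ShK-223 and 1.097 with PAP-1. Of 4 biogenesis genes, Cpt1c rose by 0.31 and 0.41 and Porcn fell, with values of -1.14 and -1.001. With batch as a term 0 of the 4 passed, the PAP-1 values being 0.41 for Cpt1c (adjusted p = 0.0521) and -0.86 for Porcn (adjusted p = 0.0655). The Cpt1c call with ShK-223 was lost without PBS 2 (adjusted p = 0.105), PBS 3 (0.0940), ShK-223 1 (0.0580) or ShK-223 3 (0.0796). Frrs1l fell by 0.35 with PAP-1 (adjusted p = 0.0348), a call lost in each of the 6 fits without 1 library, PBS 1 to 3 and PAP-1 1 to 3 (adjusted p 0.0502 to 0.100). In these lists the counts without Control 2 and PAP-1 1 were 10 higher and 1 lower with ShK-223 and 9 and 1 with PAP-1 for anchoring, and 1 and 1, and 1 and 2, for biogenesis.

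Of the 4 genes of kainate receptor partners, 3 were higher and 1 lower with each inhibitor, also without Control 2 and PAP-1 1. Over all genes, 18.8% were higher and 20.3% lower with ShK-223, and 21.1% and 22.6% with PAP-1. Without those 2 libraries 7762 and 7595 of 15213 genes passed. Neto1 and Neto2 are auxiliary subunits of kainate receptors, and they went opposite ways. Neto1 was at 32.4, 8.20 and 12.2 CPM in PBS, at 92.3, 115 and 107 CPM in ShK-223 and at 72.7, 105 and 120.3 CPM in PAP-1, with 137, 27.7 and 122 CPM in Control, and rose by 2.57 (SE 0.60, adjusted p = 0.0106) and 2.50 (SE 0.60, adjusted p = 0.00985). With batch as a term the PAP-1 value for Neto1 was 2.30 (adjusted p = 0.0541). Neto2 was at 98.3, 92.2 and 93.7 CPM in PBS, at 49.9, 75.2 and 61.7 CPM in ShK-223 and at 45.1, 54.0 and 51.7 CPM in PAP-1. It fell with both (-0.61, SE 0.16, adjusted p = 0.0152, and -0.92, SE 0.16, adjusted p = 0.00338), the first lost without ShK-223 1 (-0.45). C1ql2 and C1ql3 are secreted proteins of hippocampal mossy fibres that recruit kainate receptors. They rose by 3.70 and 2.16 with ShK-223 and by 4.29 and 2.71 with PAP-1. C1ql2 was uneven within ShK-223, at 24.2, 2.74 and 13.4 CPM, and was at 0.784 to 2.03 CPM in all 3 Control libraries.

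Adarb1, the enzyme that edits the Gria2 transcript, was at 428, 467 and 411 CPM in PBS, at 246, 285 and 336 CPM in ShK-223 and at 272, 233 and 220 CPM in PAP-1. It fell with ShK-223 (-0.59, SE 0.20, adjusted p = 0.0400) and PAP-1 (-0.85, SE 0.20, adjusted p = 0.00956). Batch as a term ended both calls (-0.47, adjusted p = 0.206, and -0.77, adjusted p = 0.0625). Of the 6 fits without 1 library, the ShK-223 call held without ShK-223 3 and was lost without PBS 1 (adjusted p = 0.0722), PBS 2 (0.114), PBS 3 (0.0721), ShK-223 1 (0.131) or ShK-223 2 (0.0919). Control 2 was at 409 CPM against 243 and 238 CPM in the other Control libraries. The other editing genes, Adar and Adarb2, did not pass with either inhibitor. Without Control 2 and PAP-1 1, 2 of the 3 were lower with ShK-223 and 1 with PAP-1. In the same fit 4008 and 3994 of 15213 genes were lower. Editing itself cannot be read from these counts.

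**Figure D5:**
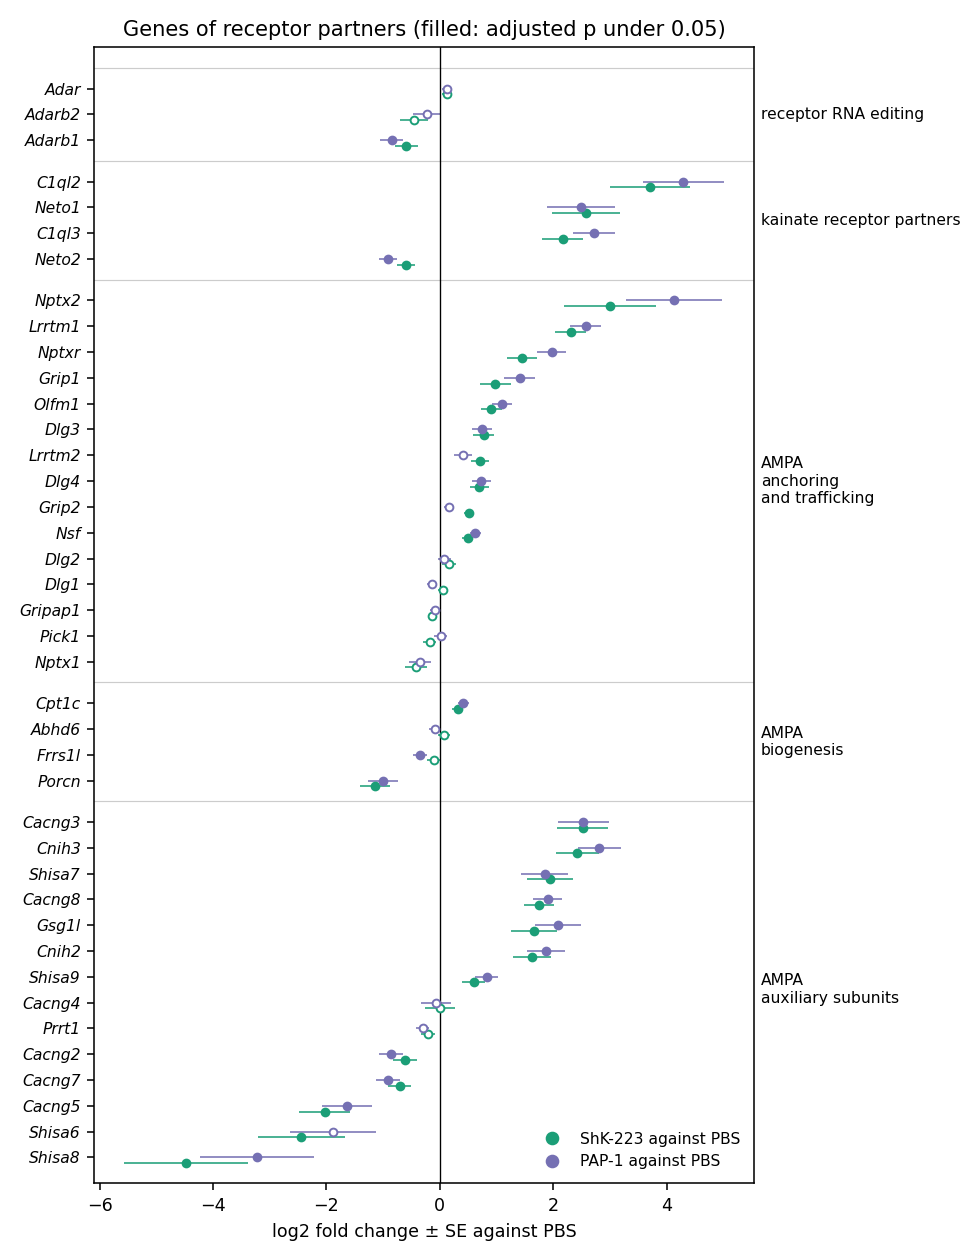
Log2 fold change against PBS with its SE (x axis) for 40 genes of receptor partners in 5 lists (y axis), for ShK-223 and PAP-1, with filled points for an adjusted p under 0.05. Values for both inhibitors, which share the PBS libraries, lie close together, and the lists of auxiliary subunits and of kainate partners hold called genes on both sides of 0.

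The genes whose pattern was most like each subunit were read from the Pearson correlation of log2 CPM over the 12 libraries among 12973 other genes. All of these values share the split of the libraries by cerebellar index and are descriptions. Gria4 was closest to Armh4 (r = 0.999), Mindy2 (0.996) and Kcnc1 (0.994), a potassium channel of fast-spiking neurons. Grik5 was closest to Mrtfa (0.994), Cinp (0.992) and Ptprn (0.991). Grik2 was closest to Nup205 (0.980), H2bc21 (0.976) and Tia1 (0.970). Gria2 had Mzt1 (0.978), Pja2 (0.965) and Ptprk (0.965) as its nearest genes, and Gria3 had Rbm24 (0.976), Ptprk (0.975) and Cnot7 (0.968). For Grik4 the nearest were Yjefn3 (0.951), Bop1 (0.950) and Asic2 (0.946), for Grik1 Drg2 (0.948) and Rnf182 (0.936), for Gria1 Man1b1 (0.930), Fam53c (0.899) and Zswim3 (0.883), and for Grik3 Calcoco1 (0.889), Mro (0.870) and Smug1 (0.859).

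Between the members themselves, r ran from -0.94 for Gria4 with Grik5 to 0.96 for Gria2 with Gria3. Gria4 went with Grik2 (0.83) and Grik1 (0.82), and Grik4 with Grik5 (0.80). Grik2, which forms the receptor that Grik5 joins, was opposed to it (-0.84). Gria1 had no r beyond 0.51 with any other member.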

How the data were processed

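Brain RNA from 12 5xFAD mice was sequenced, with 3 libraries in each of 4 groups and 1 library per mouse. The deposited file holds raw counts, whole numbers for each gene and library. STAR 2.7.11a and the GRCm38 build are named in the submitters' processing notes, as are R 4.3.2 and DESeq2 1.40.2. How reads were assigned to genes, with which annotation and whether by strand, the sources used here do not state. Exons of 4 members overlap small RNA genes on the same strand by less than 1% of their length, and none of these has a row in the table. Groups came from the treatment label and columns from the library names. Replicate numbers follow sample order and pair nothing. No library was a copy of another (the smallest chi-square per gene between a pair was 7.34).

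Low genes were removed with filterByExpr, leaving 15061, and TMM scaling was applied (edgeR 4.0.16, R 4.3.3). edgeR's quasi-likelihood model was fitted to all 12 libraries by group, and p-values were adjusted by Benjamini-Hochberg over all genes in each of 6 comparisons, with calls at 0.05. SE is the log2 fold change over the root of F. Intervals use 8 residual degrees of freedom. CPM are on TMM-scaled totals, and CPM per kb were divided by the GENCODE M21 exon union on GRCm38. The correlations used a prior count of 2, genes with a mean log2 CPM of at least 1, and left out predicted models. On simulated counts for ShK-223 against PBS over 14941 genes, edgeR recovered 83.6% of 4-fold, 53.7% of 2-fold and 16.7% of 1.5-fold changes. Only 200 genes were changed there, all others had the same mean in every group, and 5 calls were false. In the data 39.1% of genes passed in this comparison, so these rates do not give the power of the test here.

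The members and lists (110 symbols in 17 lists, all matched) were chosen with earlier results of these data known. All members are named. A few items are not reported here. Partner genes are up to 4 called per list and comparison by smallest p, some of which are given, and marker genes come in list order. Alternatives were RLE scaling, no filter, DESeq2 1.42.0, batch or the cerebellar index as a term, the compared groups alone, and fits without libraries. Recounts of the partner lists were added after the data were seen.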

Additional observations from a re-analysis of the deposited data

How the results depend on the processing

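No paired analysis was possible because the labels give no replicate numbers that groups share. RLE scaling changed no call of a subunit in any of the 6 comparisons. Subunit values that kept their sign and side of the threshold numbered 53 of 54 without a filter, 49 of 54 with DESeq2 and 51 of 54 with the compared groups alone.

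Called genes for ShK-223 against PBS numbered 4 with batch as a term and 0 with the cerebellar index, against 5896, and called subunits 0 in both, against 5. Without 1 library they ran from 3156 (without PBS 2) to 4854 genes and from 2 to 4 subunits. For PAP-1 against PBS batch gave 2752 genes and 2 subunits, and the index 0 and 0, against 6589 and 4, with 3934 to 5733 genes and 3 to 6 subunits without 1 library. For PBS against Control the 756 genes and 1 subunit became 3002 and 2 in DESeq2, 2 and 0 with batch, 0 and 0 with the index or the compared groups alone, and 7278 and 7 without Control 2 and PAP-1 1, with 0 to 6721 genes and 0 to 6 subunits without 1 library. Against Control, ShK-223 had 10 genes in DESeq2 and 0 to 1 without 1 library. PAP-1 had 381 in DESeq2, 1 without a filter, 7 with the index, 5 without Control 2 and PAP-1 1, and 0 to 2 without 1 library. ShK-223 against PAP-1 had 5 in DESeq2 and 0 to 1 without 1 library. In these 3 comparisons 0 subunits passed without 1 library. The cause was not tested.

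With the cerebellar index as a term, the sign turned against PBS with ShK-223 for Gria4 (0.335), Grik1 (0.366), Grik3 (-0.157), Porcn (0.104), Neto1 (-0.095) and Adarb1 (0.306), and with PAP-1 for Gria4 (0.318), Grik1 (0.678), Porcn (0.181), Frrs1l (0.068) and Neto1 (-0.049). It turned for PBS against Control in Gria1 (-0.047), Gria4 (-0.111), Grik1 (-0.083) and Grik2 (-0.151), for ShK-223 against Control in Gria2 (-0.087), Gria4 (0.224), Grik1 (0.282) and Grik5 (-0.037), for PAP-1 against Control in Gria2 (-0.090), Gria3 (-0.032) and Gria4 (0.207), and for ShK-223 against PAP-1 in Gria4 (0.017) and Grik2 (0.005). Batch turned the last 2 to 0.024 and 0.102. Without Control 2 and PAP-1 1 it turned for ShK-223 against Control in Gria2 (-0.058), Gria4 (0.233), Grik1 (0.310) and Grik5 (-0.035), for PAP-1 against Control in Gria4 (0.292), and for ShK-223 against PAP-1 in Gria2 (-0.132) and Gria3 (-0.167). None of these passed the test.

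Fits without 1 library ranged across 0 for Gria1 in PBS against Control (-0.018 to 0.066), for ShK-223 against Control in Gria2 (-0.058 to 0.133), Gria4 (-1.02 to 0.233), Grik1 (-0.353 to 0.309) and Grik5 (-0.035 to 0.349), for PAP-1 against Control in Gria2 (-0.080 to 0.160), Gria3 (-0.047 to 0.324) and Gria4 (-0.929 to 0.326), and for ShK-223 against PAP-1 in Gria2 (-0.132 to 0.118), Gria3 (-0.167 to 0.204) and Grik2 (-0.210 to 0.143).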
